A study of Mus musculus with 19 samples.

Results

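The 9 genes described here are markers of bile duct cells and of liver progenitor cells: the transcription factors Sox9, Sox4 and Onecut2, the keratins Krt19 and Krt7, the surface proteins Epcam, Prom1 and Cd24a, and the secreted protein Spp1. They are 9 of 22225 protein-coding genes annotated on the numbered chromosomes, X and Y of the mouse mm9 assembly. They were chosen by name, and each was given a window of its gene body with 20 kb on either side. All peaks that overlapped a window were collected from the 6 deposited peak lists.

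The lists came from chromatin immunoprecipitation followed by sequencing (ChIP-seq) on whole liver of C57BL/6 mice, with an antibody against YAP or against TEAD. All mice carried ROSA26-rtTA-IRES-EGFP, which encodes the doxycycline-responsive transactivator. The control mice (genotype ROSA26-rtTA-IRES-EGFP; WT, called WT livers) had no YAP transgene and were fed doxycycline for 7 days, and the induced mice (genotype ROSA26-rtTA-IRES-EGFP; tetYAP) were fed it for 3 days (3 d) or 7 days (7 d). According to the study's methods, the mice were crossed to an Alb-CRE line, the transgene encoded an activated YAP, and the TEAD antibody is one against TEAD4. The methods add that this antibody has been reported to bind TEAD1 and TEAD3 as well. The albumin promoter is active chiefly in hepatocytes and their precursors, and the files do not show in which cells Cre had acted. The age of the mice is not given in the sources used here. The 19 samples were 3 replicates per group, with 4 for TEAD at 7 d, and the authors merged each group into 1 list, so no difference between lists has a replicate check. The files hold binding and no expression, so the labelled tissue could not be checked against marker transcripts. In whole liver, binding in fewer cells and weaker binding per cell cannot be told apart.

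Hepatocytes and bile duct cells both descend from the hepatoblast, and ductal genes are largely silent in mature hepatocytes. YAP is a coactivator without a DNA-binding domain of its own. It is held back by the Hippo kinases, and when active it enters the nucleus and reaches DNA mainly through the TEAD factors. Sustained YAP activity in hepatocytes is known to bring out ductal and progenitor traits, and the question asked here was when, where and how strongly TEAD and YAP were found near the genes that define those traits.

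After induction TEAD peaks were found near most of these genes, as near most of all genes, and a YAP peak near 1. The TEAD lists of WT livers, 3 d and 7 d held 5695, 36446 and 38984 peaks, and the YAP lists 156, 110 and 1478. Absence of a TEAD peak in WT livers is thus absence from a much shorter list. A single window of the 9, that of Onecut2, held a TEAD peak in WT livers, against 25.4% of all genes with windows built in the same way. At 3 d 5 of 9 windows held one, against 65.3% of all genes, and at 7 d 6 of 9, against 66.5%. The share of markers with a TEAD peak at 7 d, 66.7% (95% Wilson interval 35.4% to 87.9%), was thus close to that of all genes. Intervals on shares of genes, peaks or sites cover counting error only. A YAP peak was found in none of the 9 windows in WT livers (0 of 9, interval 0% to 29.9%, against 0.139% of all genes), in none at 3 d (against 0.193%) and in 1 at 7 d, that of Prom1 (against 6.36%). The YAP share at 7 d, 11.1% (1.99% to 43.5%), had an interval that holds that of all genes. At 7 d, 5 of 9 markers held a TEAD peak without holding one in WT livers, against 41.2% of all genes. Krt19 and Krt7 held no peak in any list.

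**Figure D1:**
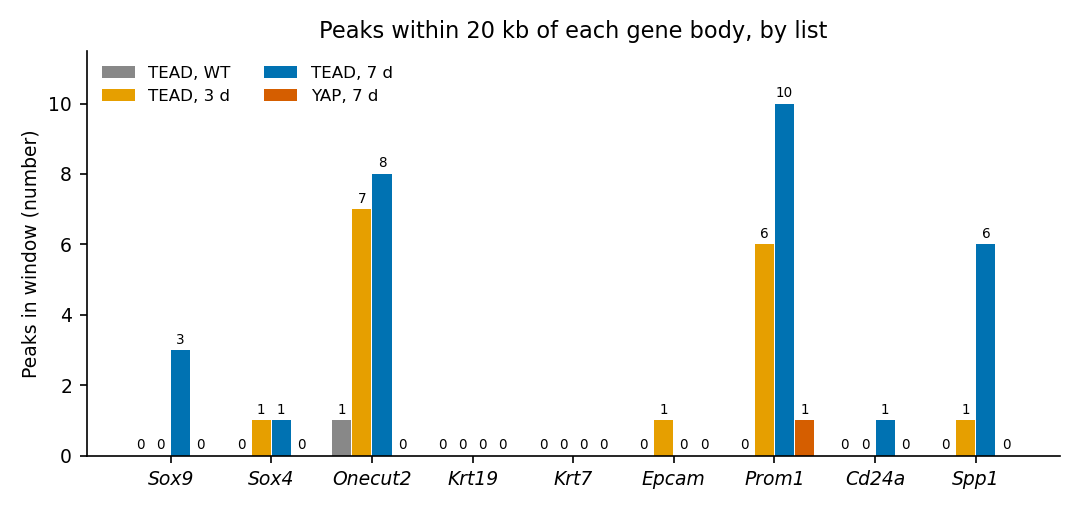
Number of peaks (vertical axis) in the window of each of the 9 genes (horizontal axis) in the 3 TEAD lists and the YAP list of 7 d, with the number written above each bar. No window held a peak of the YAP lists of WT livers or 3 d, which are not drawn. Prom1 and Onecut2 hold 10 and 8 TEAD peaks at 7 d, and Krt19 and Krt7 hold none.

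The windows differed more in the number of TEAD peaks than in their presence. Together they spanned 593 kb, in which the TEAD lists of WT livers, 3 d and 7 d had 1, 16 and 29 peaks. Per 100 kb this was 0.169 peaks in the WT list, 2.70 at 3 d (exact 95% Poisson interval 1.54 to 4.38) and 4.89 at 7 d (3.28 to 7.03). Over the windows of all genes the densities were 0.332, 2.16 and 2.27 peaks per 100 kb. The density near the markers thus lay above that of all gene windows at 7 d by more than the counting interval, and did not at 3 d. The interval treats peaks as independent, whereas neighbouring peaks of 1 window share their locus: the Prom1 and Onecut2 windows made up 42.0% of the length and held 18 of the 29 TEAD peaks of 7 d. Whether the other 7 windows exceed the density of all gene windows on their own was not tested.

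Sox9 is a transcription factor that marks embryonic ductal cells and the adult biliary tree. Its window held no peak in WT livers or at 3 d and 3 TEAD peaks at 7 d. A peak at chr11:112643087-112643609 (mm9) lay across the start of transcription, with its summit 22 bp upstream, a pileup of 22 fragments at the summit and a fold enrichment over the local background of 5.18. A further peak, 5.04 kb upstream in an intron of the noncoding transcript BC006965, had a pileup of 23 and a fold enrichment of 5.42. The highest of the 3, at chr11:112649345-112649831, lay 5.99 kb downstream of the start, past the end of the gene, with a pileup of 34 and a fold enrichment of 8.01. By pileup these peaks stood at the 10.7th, 14.7th and 51.1st percentile of the 38984 TEAD peaks of 7 d, so none was among the strong peaks of its list. The sequences below are the stretch of the promoter peak that ends at the base before the start of transcription, and the 201 bases centred on the summit of the highest peak. They are the plus strand of mm9 from 5′ to 3′, and capitals mark the letters TGANTCA, bound by AP-1. The core letters bound by TEAD, GGAATG or their reverse complement CATTCC, are in neither. At the upstream peak GGAATG on either strand began 2 bp from the summit.
Sox9 promoter, chr11:112643416-112643537: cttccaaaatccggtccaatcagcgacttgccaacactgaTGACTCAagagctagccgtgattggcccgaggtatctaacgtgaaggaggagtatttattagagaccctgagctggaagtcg
Sox9 downstream, chr11:112649432-112649632: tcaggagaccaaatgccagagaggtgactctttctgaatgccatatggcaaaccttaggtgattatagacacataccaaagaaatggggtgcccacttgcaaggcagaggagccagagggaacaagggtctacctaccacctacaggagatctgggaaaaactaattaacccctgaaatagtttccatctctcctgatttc

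Sox4, a second factor of the SOX family that acts in bile duct development, held 1 TEAD site, at its promoter. The peak at 3 d (chr13:29045517-29045789) had its summit 56 bp upstream of the start, with a pileup of 26 and a fold enrichment of 4.15. At 7 d the peak (chr13:29045592-29045827) had its summit 145 bp upstream, with a pileup of 25 and a fold enrichment of 5.89. It stood at the 12.0th percentile of the 3 d list and the 23.1st of the 7 d list, and no peak was listed there in WT livers. The 201 bases around the 7 d summit hold the TEAD core letters on the minus strand, shown in capitals in the plus-strand sequence. They begin 4 bp from the summit of 7 d and 93 bp from that of 3 d.
Sox4 promoter, chr13:29045627-29045827: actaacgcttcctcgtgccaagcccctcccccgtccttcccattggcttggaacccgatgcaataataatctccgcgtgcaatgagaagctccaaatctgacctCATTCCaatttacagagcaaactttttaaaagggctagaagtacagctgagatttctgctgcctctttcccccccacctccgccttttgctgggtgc

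Onecut2, a homeodomain factor that with its paralogue Onecut1 takes part in the separation of biliary from hepatocyte fate, was the one marker with a TEAD peak in WT livers. This site lay 14.4 kb upstream of the start and was called in all 3 TEAD lists. Its pileup was 37 in the WT list (fold enrichment 4.92), 98 at 3 d (15.45) and 72 at 7 d (15.78). Within its list it stood at the 39.5th percentile in WT livers, the 94.1st at 3 d and the 85.6th at 7 d. Pileups of the WT list cannot be set directly against the others, because its fragments were extended to 400 bp and those of 3 d and 7 d to 207 and 206 bp. The Onecut2 window held 7 TEAD peaks at 3 d and 8 at 7 d. They included a promoter peak 1.11 kb upstream, with a pileup of 37 in both lists and a fold enrichment of 6.07 at 3 d and 8.72 at 7 d, and an intronic peak 41.1 kb into the gene, with a pileup of 65 at 3 d and 62 at 7 d. A single site, in the UTR, was called at 7 d alone, with a pileup of 21 and a fold enrichment of 4.95. TEAD near Onecut2 was thus mostly in place by 3 d.

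Krt19 and Krt7 encode the keratins by which bile ducts are usually stained. Their windows spanned 47.9 and 59.3 kb and held other keratin genes (Krt13 and Krt15 near Krt19, Krt83 near Krt7), and no YAP or TEAD peak was listed in them in any of the 6 lists. Such windows were not rare: 6700 further genes, 30.1% of all, had no peak in any list. A list holds only what passed the cutoff of 1e-05 on the p-value, so weaker binding is not shown by these files.

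Prom1 encodes the surface protein CD133, a progenitor marker, and its window held the one YAP peak. It held 6 TEAD peaks at 3 d and 10 at 7 d, the most of the 9 windows at 7 d, in a gene body of 108 kb. The YAP peak of 7 d (chr5:44374303-44374599) had a pileup of 34 and a fold enrichment of 6.63, and ranked 376th of 1478, at the 73.2nd percentile. It lay inside a TEAD peak of 7 d (chr5:44374035-44374779) with a pileup of 166 and a fold enrichment of 31.29, which ranked 699th of 38984, at the 98.2nd percentile. At 3 d the TEAD peak there (chr5:44374295-44374585) had a pileup of 39 and a fold enrichment of 4.93, and ranked 14757th of 36446. The site was 119 kb downstream of the first start of Prom1, beyond the end of the gene, and 1.43 kb from the start of Fgfbp1, which encodes a secreted carrier of fibroblast growth factors. The assignment of this peak to Prom1 therefore rests on the width of the window. Its sequence is shown because it is the only site of the markers with YAP. The 201 bases are centred on the YAP summit, on the plus strand, and capitals mark the FOXA letters TGTTTAC on the minus strand, which begin 58 bp before the summit, and the TEAD core on the minus strand, which begins 19 bp before it.
Prom1 window, YAP and TEAD site, chr5:44374372-44374572: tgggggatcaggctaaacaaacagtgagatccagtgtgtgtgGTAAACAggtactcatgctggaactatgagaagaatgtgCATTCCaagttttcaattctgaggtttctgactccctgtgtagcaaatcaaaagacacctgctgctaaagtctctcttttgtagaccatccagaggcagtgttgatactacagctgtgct

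Near the start of Prom1 the peaks were of middling height. A TEAD peak 1.30 kb upstream had a pileup of 34 and a fold enrichment of 8.01 at 7 d (chr5:44494415-44494731), and of 39 and 6.40 at 3 d. A second promoter peak, 1.29 kb downstream of the first start and 303 bp from that of Gm16401, was called at 7 d alone, with a pileup of 21 and a fold enrichment of 4.95. The peak 3.34 kb upstream had a pileup of 29 at 3 d and 44 at 7 d. None of these promoter sites carried a YAP peak.
Prom1 promoter, chr5:44494475-44494675: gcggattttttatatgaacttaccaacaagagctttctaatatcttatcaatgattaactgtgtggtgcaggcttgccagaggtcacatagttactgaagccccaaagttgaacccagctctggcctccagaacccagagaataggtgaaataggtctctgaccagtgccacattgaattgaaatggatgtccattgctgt
This promoter sequence, centred on the 7 d summit, holds none of the TEAD, AP-1 or FOXA letters.

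Epcam, an adhesion molecule of ductal epithelium, was the one marker with a TEAD peak at 3 d and none at 7 d. That peak had a pileup of 29 and a fold enrichment of 4.76, at the 25.3rd percentile of the 3 d list. It lay 33.6 kb from the start of Epcam, beyond the gene. Cd24a, which encodes a small glycosylated surface protein of progenitor and ductal cells, held 1 TEAD peak, at 7 d, in a UTR 3.89 kb from its start, with a pileup of 25 and a fold enrichment of 5.89. Both windows thus held a single weak peak in a single list.

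Spp1 encodes osteopontin, a secreted matrix protein made by bile duct cells. Its window held 6 TEAD peaks at 7 d, after 0 in WT livers and 1 at 3 d. Of these, 3 were at the promoter. The highest (chr5:104863128-104863631) lay 657 bp upstream of the first start with a pileup of 35 and a fold enrichment of 6.90, at the 53.2nd percentile. The others lay in an intron, 113 bp from the nearest start (pileup 26, fold enrichment 6.13), and in an exon 380 bp from another annotated start (pileup 30, fold enrichment 7.07). None of the 3 was listed at 3 d. The other TEAD peaks lay 11.4, 18.7 and 26 kb downstream of the first start, closer to the starts of Gm10047 or of Pkd2, a polycystin gene that also acts in bile ducts, than to that of Spp1. The peak at 11.4 kb was the one called at 3 d as well, with a pileup of 25 there and 26 at 7 d. The 201 bases at the summit of the highest promoter peak hold none of the TEAD, AP-1 or FOXA letters and are printed in lower case throughout.
Spp1 promoter, chr5:104863380-104863580: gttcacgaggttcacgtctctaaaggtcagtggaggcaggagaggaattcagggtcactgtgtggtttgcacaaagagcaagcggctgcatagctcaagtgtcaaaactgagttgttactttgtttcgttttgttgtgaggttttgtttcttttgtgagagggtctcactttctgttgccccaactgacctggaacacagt

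**Figure D2:**
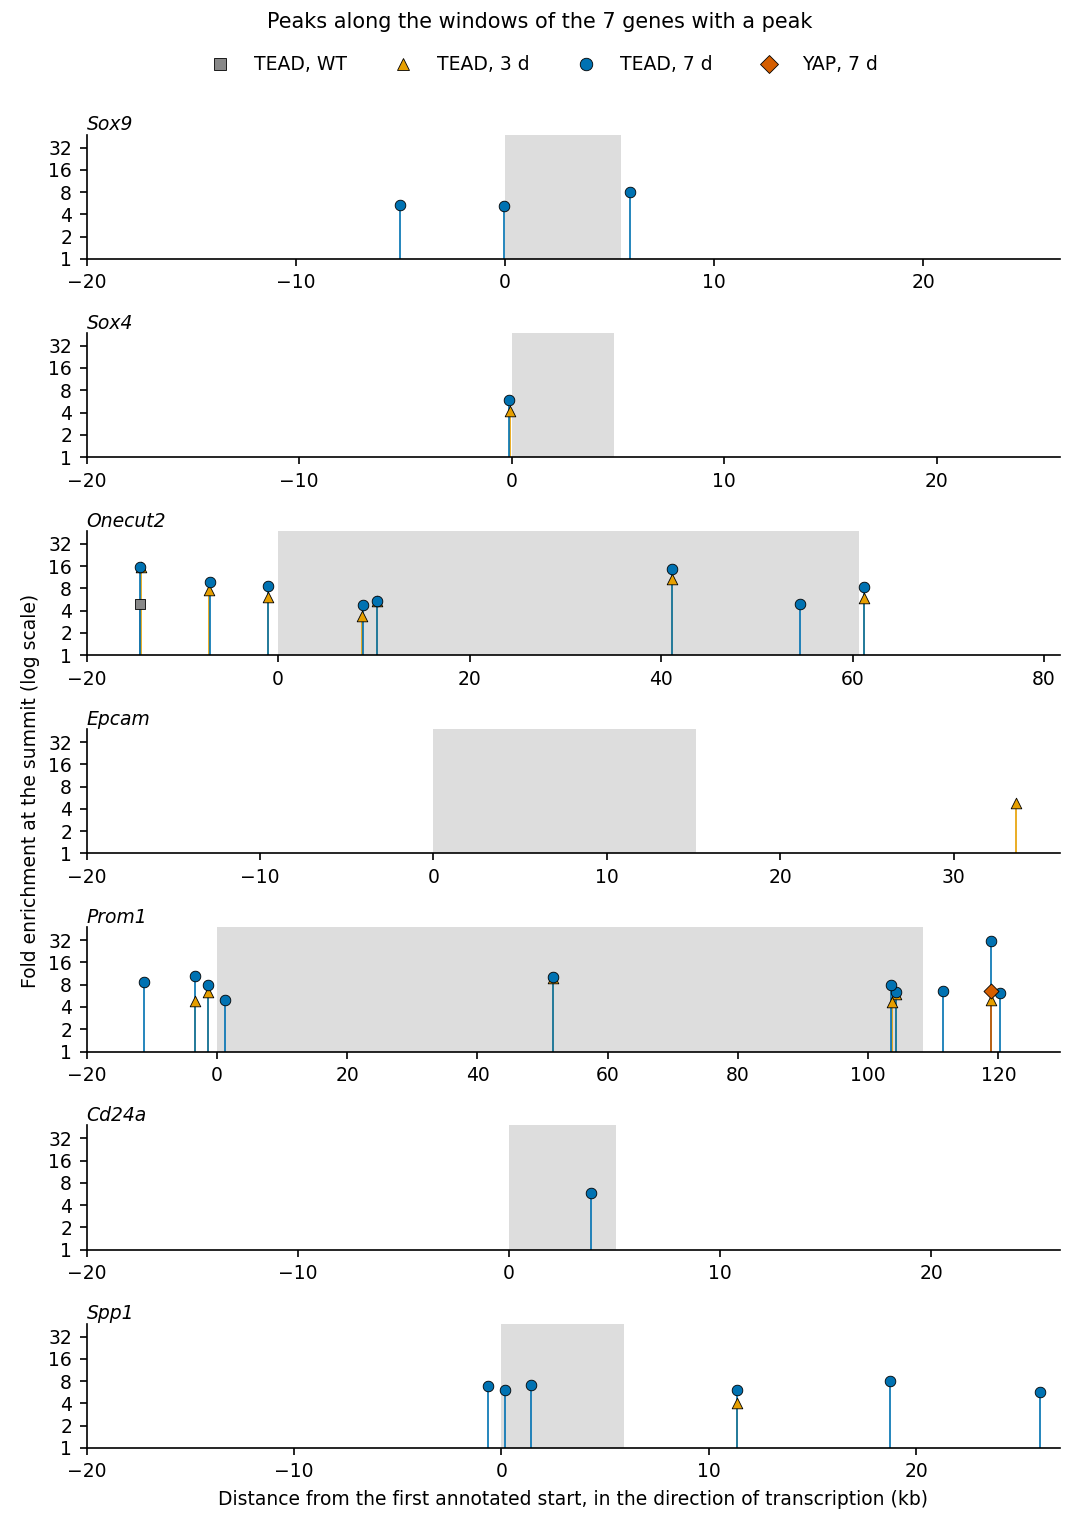
Fold enrichment of each peak (vertical axis, log scale) against the distance of its summit from the first annotated start of the gene (horizontal axis, kb, in the direction of transcription) for the 7 genes with a peak, with the gene body shaded and a stem from each peak to 1. The tallest, at 31.29 and 119 kb from the start of Prom1, is the TEAD peak of 7 d that holds the YAP peak, and Sox9, Cd24a and the Spp1 promoter have peaks at 7 d alone.

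Counting only promoters, defined as the stretch from 2000 bp before to 1000 bp after any annotated start, no marker had a TEAD peak in WT livers, against 8.73% of all genes. At 3 d there were 3, Sox4, Prom1 and Onecut2, against 39% of all genes. At 7 d there were 5, these and Sox9 and Spp1, against 37.7% of all genes. The share at 7 d, 55.6% (26.7% to 81.1%), had an interval that holds the background share. The 5 promoters carried 8 TEAD peaks, with pileups between 21 and 37 and fold enrichments between 4.95 and 8.72, and none of them a YAP peak.

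The heights of the TEAD peaks were those of an ordinary TEAD peak. At 7 d the 29 peaks ranged from the 7.06th to the 98.2nd percentile of pileup in their list, with a median at the 51.1st percentile, and 14 stood below the 50th. Their median fold enrichment was 6.90, against 7.30 over the whole list. A single one, the Prom1 window site with YAP, was in the top 10% of the list. At 3 d the 16 peaks ranged from the 8.0th to the 94.1st percentile with a median at the 57.3rd, and a single one, the site upstream of Onecut2, was in the top 10%. The peaks of Sox9, Sox4, Epcam, Cd24a and Spp1 all lay below those 2 genes' highest, at the 53.2nd percentile or lower in either list.

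**Figure D3:**
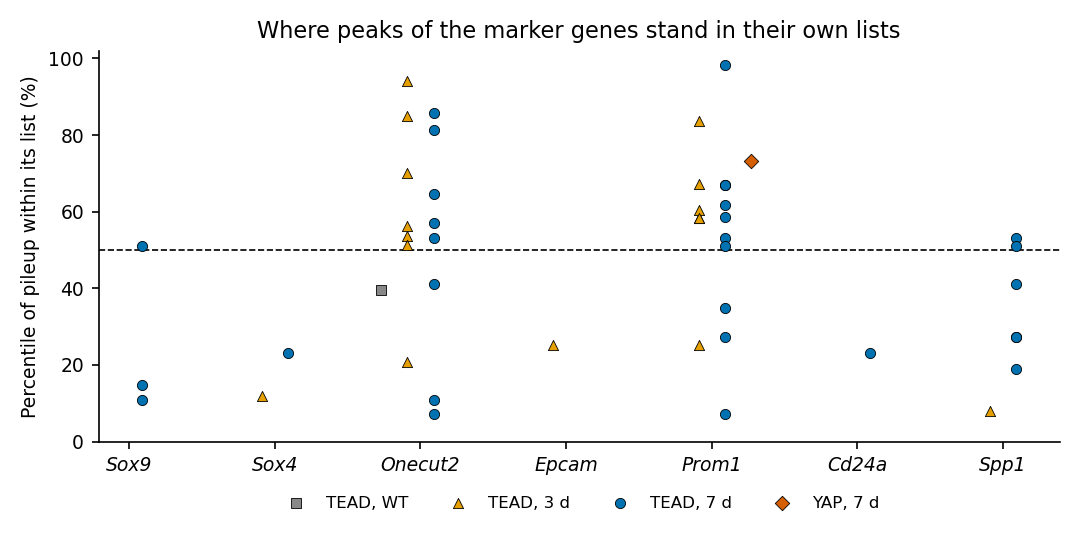
Percentile of each peak's pileup within its own list (vertical axis, %) for the 7 genes with a peak (horizontal axis), by list, with the dashed line at the 50th percentile. Points span nearly the whole range for Prom1 and Onecut2, with the highest at the 98.2nd percentile, while Sox4, Epcam and Cd24a stay below the line.

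To ask when each site appeared, overlapping TEAD peaks of the 3 lists were joined into sites, which gave 30 sites in the windows and 47104 in the genome. In the windows 1 site was in the WT list, 3.33% (0.591% to 16.7%), against 12% of all sites. A further 14 sites were called at 3 d and 7 d but not in WT livers, 46.7% (30.2% to 63.9%), against 46.1% of all. Another 14 were called at 7 d alone, 46.7% (30.2% to 63.9%), against 23.7% of all, and 1 at 3 d alone, 3.33% (0.591% to 16.7%), against 18.2%. The share called at 7 d alone thus stood above that of the genome by more than its counting interval, and the share called at 3 d alone below it. These intervals treat sites as independent, whereas sites of 1 window share their locus. Of the 14 sites called at 7 d alone, Spp1 held 5, Prom1 4, Sox9 3, Cd24a 1 and Onecut2 1. Outside Prom1 and Onecut2, 9 of the 12 sites were called at 7 d alone. At the promoters 5 of 8 sites were called at 7 d alone, 3 of these at Spp1, and the other 3 at 3 d and 7 d. The matching share over all promoter sites of the genome is not given here, so this is a count without a background. YAP at 7 d overlapped 1 of the 30 sites, 3.33% (0.591% to 16.7%), against 2.94% of all sites. By place, 17 of the 30 sites were intergenic, 9 lay in introns and 4 in exons, and for 11 the nearest start of a protein-coding transcript belonged to another gene.

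**Figure D4:**
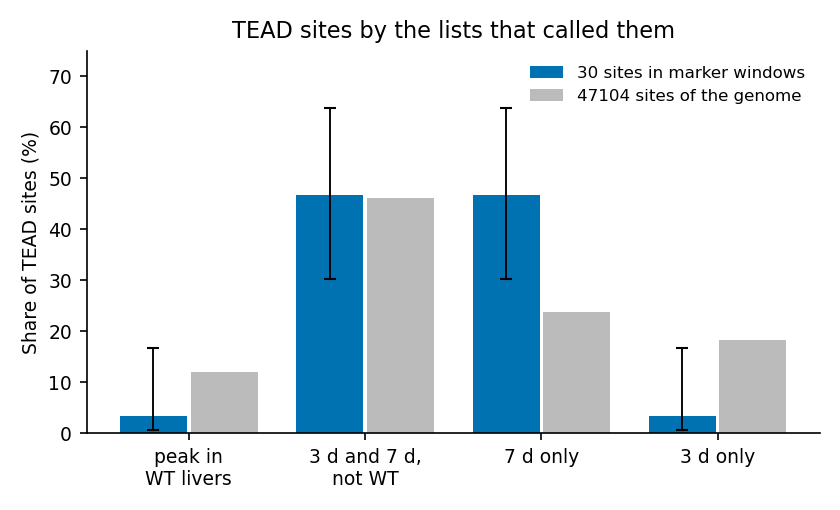
Share of TEAD sites (vertical axis, %) by the lists in which they had a peak (horizontal axis), for the 30 sites in the marker windows (blue, bars with 95% Wilson intervals over sites) and for all 47104 sites (grey). The classes are exclusive. Called at 7 d alone are 46.7% of the marker sites and 23.7% of all sites.

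The sites called at 7 d alone were the weaker ones. Their 14 peaks had pileups between 21 and 40 and fold enrichments between 4.95 and 8.67, with a median at the 27.2nd percentile of the 7 d list. All such sites of the genome had a median at the 31.2nd percentile. The 14 peaks of sites shared with 3 d but not WT had a median at the 55.1st percentile, against the 51.1st for all peaks of that class. The 3 d library held more tags than the 7 d library, 55032002 against 38523843, so that a pileup must be scaled before it is compared. When the local background at each of the 14 sites was scaled to the 3 d library by tags and fragment length, a pileup of 19 to 22 would have passed the caller's cutoff at 3 d. Since these sites were selected for having passed at 7 d alone, whether depth had a part in the missing 3 d calls was not tested. The caller also requires a peak to be at least as long as the fragment, which this calculation leaves out. The lowest pileup in the 3 d list was 20.

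The same calculation was made for WT livers. There a pileup of 22 to 26 would have passed the p-value cutoff at the 29 sites without a WT peak. The background was taken from 7 d, or from 3 d for Epcam, and the lowest pileup in the WT list was 24. Fragments of the WT library were extended to 400 bp by the caller, and the part of this setting in the short WT list was not tested. For YAP at 7 d, a pileup of 16 to 19 would have passed the p-value cutoff at the 29 sites without a YAP peak. The site with a YAP peak had a pileup of 34, and the lowest pileup in that list was 18.

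At the 15 sites with a peak at both times, TEAD pileup per 1000000 tags was compared between 7 d and 3 d, corrected for the 1 bp difference in fragment length. Over all 27083 such sites of the genome the ratio had a median of 1.34, with the middle 50% between 1.11 and 1.64 and the middle 95% between 0.781 and 3.01. The 15 marker sites had a median of 1.36, and 8 lay above the genome's median and 7 below. At 14 of them the exact 95% interval of the ratio, from the counts alone, held the genome's median. The exception was the YAP-bound site in the Prom1 window, where TEAD pileup went from 0.709 to 4.31 fragments per 1000000 tags, a ratio of 6.11 (4.29 to 8.90) and the 31st highest of the 27083. The next highest ratio, 2.18 (1.33 to 3.61), was at the site 3.34 kb upstream of Prom1, and the lowest, 0.913 (0.548 to 1.5), in an intron of the same gene. For the site in all 3 lists upstream of Onecut2 the ratio was 1.05 (0.767 to 1.44), and for the Sox4 promoter 1.38 (0.765 to 2.49). Apart from the YAP-bound site, a departure of a marker site from the shift of the whole list was not detectable at this depth.

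**Figure D5:**
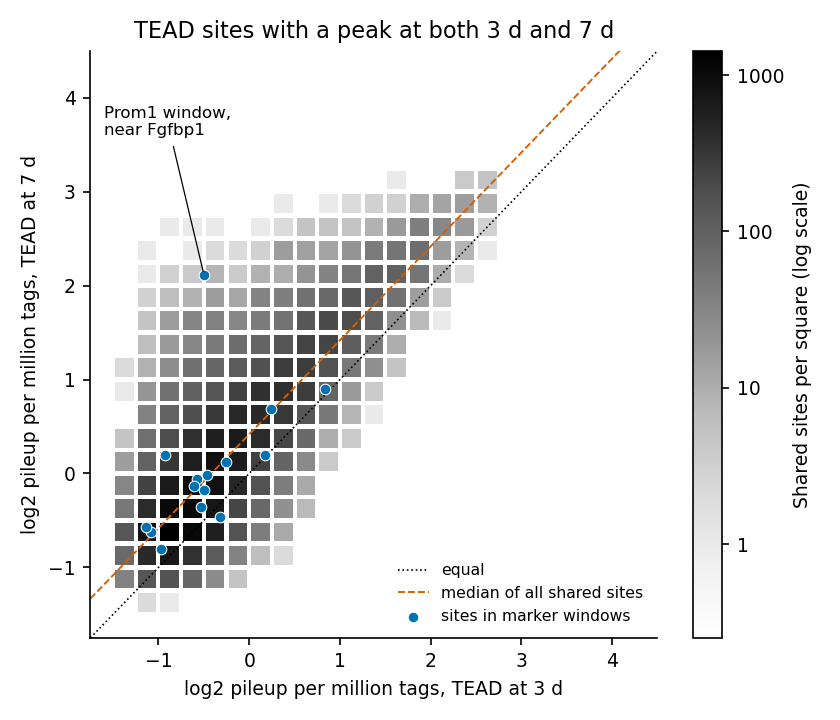
TEAD pileup per 1000000 tags at 7 d (vertical axis, log2) against 3 d (horizontal axis, log2) for the 15 marker sites with a peak at both times (blue) over the 27083 such sites of the genome (grey squares, darker with more sites, log scale). The dotted line marks equality and the dashed line the median of all shared sites. Of the 15, 14 lie near the dashed line, and the labelled site in the Prom1 window, near Fgfbp1, lies far above it.

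The letters of known motifs were then counted within 100 bp of the summits, on both strands. GGAATG, the TEAD core, was found at 14 of 29 TEAD peaks of 7 d in the windows, 48.3% (31.4% to 65.6%), against 35.2% of all peaks of that list. At 3 d it was found at 8 of 16, 50% (28% to 72%), against 30.4%. Both intervals hold the share of the list. TGANTCA, bound by AP-1, was found at 3 of 29 peaks of 7 d against 8.71% of the list, and TGTTTAC, bound by FOXA, at 3 of 29 against 5.76%. The letters CAAAGTCCA, of HNF4A, were found at 0 of 29, an interval of 0% to 11.7%, against 1.69% of the list. Each motif was counted on its own, and matches of different motifs may share bases. Among the promoter peaks of 7 d the TEAD letters were found at that of Sox4 and not at the others, and the UTR peaks of Cd24a and Onecut2 held both the TEAD and the AP-1 letters.

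Other ductal genes were given the same windows for comparison. Of 30 such genes, TEAD peaks stood in the windows of 14 in the WT list, 23 at 3 d and 24 at 7 d, or 46.7%, 76.7% and 80%, against 25.4%, 65.3% and 66.5% of all genes. A YAP peak at 7 d was held by 7, or 23.3%, against 6.36% of all genes. These 7 include the keratins Krt18 and Krt8, the aquaporin Aqp1, the integrin subunit Itgb6 and the RNA-binding protein gene Bicc1. The YAP peak 2.41 kb upstream of Krt18 had a pileup of 42 and a fold enrichment of 9.17, and lay at a TEAD peak with a pileup of 187 and a fold enrichment of 44.06. At Itgb6 the YAP peak, 7.31 kb into the gene, had a pileup of 36 and a fold enrichment of 7.31, with a TEAD pileup of 208. The YAP peaks of Krt8, 9.54 kb upstream, and of Bicc1 were weak, with pileups of 20 and 23, at the 2.17th and 12.8th percentile of the YAP list. The windows of the neighbouring simple keratins Krt8 and Krt18, which overlap, held YAP and TEAD peaks at 7 d, and those of Krt7 and Krt19 held none. The list was chosen by name, and whether its genes are restricted to duct cells was not tested. Another of the 7, Fgfr2, has an annotated body of 3009 kb in this annotation, so its window takes in peaks of many other genes. A YAP peak in that window lay 311 kb from the start of Fgfr2 and nearest to Tacc2. The share of 23.3% keeps Fgfr2 in and counts Krt8 and Krt18 as separate genes. The 30 genes also include Pkd2, whose highest TEAD peak of 7 d is the one 18.7 kb downstream of the first Spp1 start. That peak is thus counted for a marker as well. The shares of these genes were given no interval. Of 12 hepatoblast and progenitor genes, 3 held a TEAD peak in the WT list, 7 at 3 d and 9 at 7 d, or 25%, 58.3% and 75% against the same shares of all genes, and 1, Igf2bp3, held a YAP peak at 7 d, 105 kb from its start. Of 6 hepatocyte genes, TEAD peaks were found at 4 in the WT list, 66.7%, and at all 6 at either later time, against the same shares, and 1, Alb, held YAP peaks in all 3 lists.

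The number of genes whose counts in all 6 lists equal those of a marker shows how common each pattern was. It was 37 for Sox9, 1683 for Sox4, 6700 for Krt19 and Krt7, 6 for Spp1, 566 for Epcam, 2 for Prom1, 769 for Cd24a and 23 for Onecut2. Windows differ in length, and longer ones take in more peaks. At least as many TEAD peaks at 7 d as Spp1 were held by 11.8% of all genes, as Onecut2 by 5.89% and as Prom1 by 3.03%. For Sox9 this share was 35.4%, and for Sox4 and Cd24a 66.5%, so their numbers of TEAD peaks were common.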

How the data were processed

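YAP and TEAD binding was measured by ChIP-seq in 19 liver samples. Per the labels and the study's methods, the authors aligned reads to mm9 with BWA 0.6.2, pooled all replicates within a group and dropped duplicate reads, so each of the 6 groups is 1 peak list. SAMtools is also named. MACS 2.0.9 called the peaks, per the file headers, with p-values under 1e-05 against a control of 167176362 tags that was the same for all lists. The merged libraries held between 34260362 and 55032002 tags, and the fragment length was 250 bp for YAP, and for TEAD 400 bp in the WT list, 207 bp at 3 d and 206 bp at 7 d. The deposited pileup is a signal: how many extended fragments cover the summit. The deposited fold enrichment is the ratio of the pileup to the local background. The deposited −log10 p-value and −log10 q-value came from the same caller.

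From these files, peaks that overlapped a gene window by at least 1 bp were collected with Python 3.11.15, pandas 2.3.3 and pysam 0.24.0. Genes and sequence came from the GENCODE annotation and genome of NCBIM37, the same assembly as mm9, and peaks on unplaced sequence were left out. Ranks were taken within a list by pileup. TEAD peaks that overlapped across lists were joined into sites. The local background was taken as the pileup divided by the fold enrichment and scaled between lists by tags and fragment length. The scripts were tested on simulated data. Counts over the 9 genes stand beside the same counts over 22225 protein-coding genes, and differences between lists were given no p-value, since a merged list has no replicates. Genes, peaks and sequences were named by rule: all 9 genes, every YAP peak, the highest TEAD peak of each window, every promoter TEAD peak, and at most 6 further ductal genes with a YAP peak at 7 d, to which Fgfr2, Igf2bp3 and Alb were added after their values were seen. The genes, the lists and the comparisons were chosen with earlier results of these data known. Some items withheld for evaluation are not reported here. Alternatives changed the window, the peaks kept, the overlap that joins peaks, the ranking measure, the promoter and the motif window. Intervals are Wilson intervals for shares and exact intervals for densities and ratios, at 95%, and cover counting error only.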

Additional observations from a re-analysis of the deposited data

How the results depend on the processing

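Of 72 recomputations of 16 results, 48 stayed close to the reported value and 24 did not. Close meant within a factor of 1.5 for a count, and within the counting interval for the motif share and the median percentile. With windows of 10 kb on either side, 0 markers and 0 peaks were left for YAP at 7 d and for TEAD in WT livers, and when a peak was kept only where its nearest protein-coding start was that of the marker, 0 were left for YAP at 7 d, 10 TEAD peaks at 3 markers at 3 d and 19 TEAD peaks at 7 d. With windows of 50 kb, 2 markers held 2 TEAD peaks in WT livers, and there were 28 TEAD peaks at 3 d and 45 at 7 d. With a fold enrichment of at least 5, 0 markers, 0 peaks and 0 sites were left for TEAD in WT livers, and 9 peaks at 2 markers at 3 d. With a −log10 p-value of at least 10, 3 markers held a TEAD peak at 3 d. With as many of the strongest peaks as the WT list holds, an alternative chosen after seeing the data, 1 marker with 2 TEAD peaks was left at 3 d and 2 markers with 2 peaks at 7 d. With 50 bp on either side of the summit, GGAATG was found at 31.0% of the TEAD peaks of 7 d in the windows, against 27.7% of the whole list. The fewer peaks under a narrower window or a stricter threshold follow from its construction.

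No paired analysis was possible because the deposited lists are merged over replicates, and for the same reason leaving out replicates in turn was not run. Binding below the cutoff is not listed: the lowest pileup listed was 16 to 24 fragments, depending on the list.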
